A study of Mus musculus with 25 samples.

Results

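TG and WT cardiac myocytes were compared in serum-free medium, across all 35557 probe sets of the array. TG myocytes came from neonatal mice that overexpress CHF1/Hey2 in the myocardium from the mlc2v promoter, and WT myocytes came from neonatal mice without the transgene. The comparison used 11 of the 25 arrays of the series, 6 of TG and 5 of WT cultures, chosen by their labels alone, and the other arrays held myocytes exposed to 20% serum for 24 hours. Each array held RNA of an independent culture, but the litter of each culture and the mouse strain are not given in the sources used here, so the p-values below measure the spread between cultures. Of the probe sets, 21789 were named for 1 gene, 1621 for several and 12147 had no gene name in the annotation used here. Whether an unnamed probe set reads a gene or a control sequence of the array is not given there. Values are log2 intensities after Robust Multichip Analysis (RMA), so a difference of 1 is a doubling, and the number of arrays limits the precision. Array medians lay between 4.99 and 5.09, and any pair of arrays correlated at 0.9857 to 0.9961 across probe sets.

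CHF1/Hey2 is a basic helix-loop-helix repressor of the Hairy family and a target of Notch signaling. In the developing heart it is a factor of the compact ventricular wall, where it is known for restraining atrial genes and for binding GATA4, an activator of cardiac genes. The mlc2v promoter belongs to Myl2, the regulatory light chain of ventricular myosin, and it is active in ventricular myocytes rather than in the fibroblasts, endothelial cells, epicardial cells and macrophages that a heart cell preparation can carry along. The study's methods state that each preparation was checked by staining of sarcomeric myosin and found to be nearly pure in myocytes. The staining was not analysed here.

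Before any genotype comparison, myocyte transcripts were read in each culture. A myocyte score was taken as the mean, over 20 sarcomere genes, of the log2 value minus that gene's mean over the 11 cultures. All 20 genes had a mean log2 value above 5, the level under which a probe set is called dim here. The score was 0.343, 0.554, 0.356, -0.396, -0.839 and 0.345 in TG cultures 1 to 6. In WT cultures 1 to 5 it was 0.0926, -0.744, -0.0021, 0.217 and 0.0736. TG 5 and WT 2 thus stood lowest, TG 4 was intermediate, and 4 TG cultures stood above every WT culture. The SD of the score was 0.549 over TG and 0.383 over WT cultures. Fewer myocytes and less of these transcripts per myocyte cannot be told apart in such RNA.

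The cultures kept much the same order in 19 other myocyte genes, those of calcium handling and energy supply, where the mean was lowest in TG 5 at -0.955 and WT 2 at -0.826 and highest in TG 2 at 0.576. This order also led the variation over all probe sets. The main axis of a principal component analysis held 35.47% of the variance, with TG 5 at -33.4, WT 2 at -32.3 and TG 4 at -18.8 at one end and TG 2 at 27.9 at the other. The main comparisons of genotype are therefore given over all 11 cultures, without WT 2 and TG 5, and with the myocyte score as a covariate, and a value with no setting named is over all 11.

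Hey2 itself, probe set 10368556, was higher in every TG culture than in any WT culture. Its log2 values were 7.82, 8.55, 8.01, 7.08, 7.08 and 8.32 in TG 1 to 6, and 6.14, 6.32, 6.12, 6.37 and 6.19 in WT 1 to 5. WT cultures were narrowly grouped, with an SD of 0.11, whereas TG cultures spread with an SD of 0.62, and TG 4 and TG 5 were the lowest of them. The log2 difference was 1.58 (SE 0.26, 95% interval 1.02 to 2.15), a 3.0-fold higher geometric mean. It ranked 2 of 35557 by p, with an unadjusted p of 6.47e-05, but the adjusted p of limma was 0.853 after Benjamini-Hochberg adjustment over all probe sets, so it was not called. Without WT 2 and TG 5 the difference was 1.75 (SE 0.255, limma adjusted p 0.493), and with the myocyte score as covariate it was 1.49 (SE 0.179, limma adjusted p 0.111). Whether these probes tell the transcript of the transgene from that of the endogenous gene was not tested.

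The level of Hey2 in TG cultures followed that of Myl2, whose promoter drives the transgene. Myl2 read 12.73, 12.94, 12.88, 12.26, 11.84 and 12.67 in TG 1 to 6 and 12.54, 11.92, 12.45, 12.6 and 12.53 in WT 1 to 5. Across the 6 TG cultures, Pearson's r was 0.876 (exact two-sided permutation p = 0.0222) and Spearman's rho was 0.829 (exact permutation p = 0.0583). This was the only pair of genes for which a correlation was computed, so a closer tie to Myl2 than to other myocyte genes was not tested. The calcium channel gene Ryr2, like Hey2, was lowest in TG 4 and TG 5, at 7.35 and 6.84, and highest in TG 2, at 9.63. Without TG 4 and TG 5, the cultures farthest from the median Myl2, r was 0.353 over 4 cultures (exact permutation p = 0.542), so the relation rests on those cultures. In WT 2, with Myl2 as low as in TG 5, Hey2 read 6.32, within the narrow range of the other WT cultures.

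**Figure D1:**
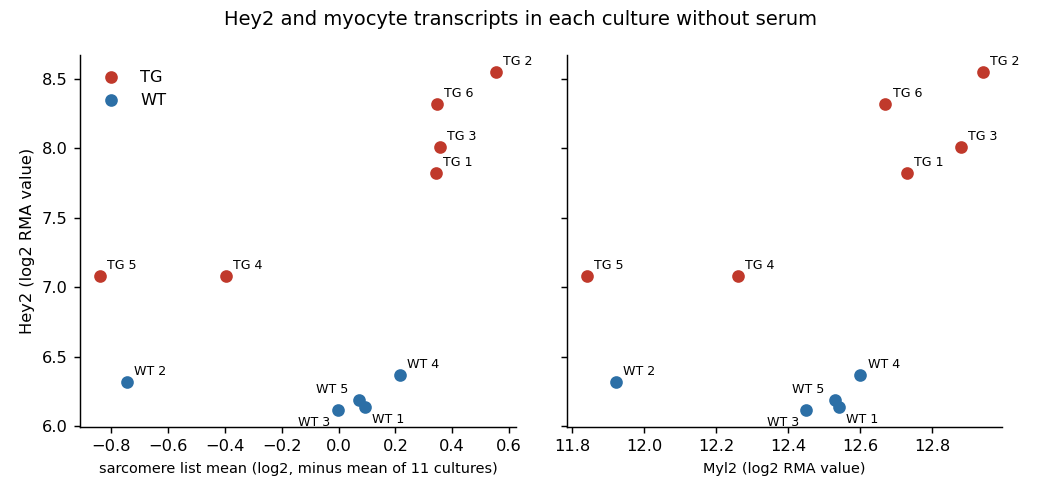
Hey2 in each culture (y axis, log2 RMA value) against the sarcomere list mean (left) and Myl2 (right, log2 RMA value), red for 6 TG and blue for 5 WT cultures, 1 point per culture. TG 4 and TG 5 have the lowest Hey2 among TG cultures, at 7.08 each, and low myocyte transcripts, while Hey2 lies between 6.12 and 6.37 in all 5 WT cultures.

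Relatives of Hey2 were nearly level. Hey1 differed by 0.03, with WT values from 4.73 to 5.04 and TG values from 4.71 to 5.16, and Heyl differed by -0.04, with values overlapping between genotypes. Of 21 genes of the Notch pathway, 3 were higher in TG and none passed the adjusted test, with a median difference of -0.0449 against -0.0083 over all 19938 genes kept at 1 probe set each. That count was 6 after quantile normalization and 9 after centring each array on its median. Over all 19938 genes kept, the number higher in TG was 9010, 10091 and 12558 in the same order of scalings. Jag2, a Notch ligand, differed by -0.32 (SE 0.141, unadjusted p 0.0452). Notch1, a receptor, read 7.3, 7.07, 7.26, 7.86, 7.81 and 7.44 in TG 1 to 6 against 7.56 to 7.93 in WT, and it was lowest in the 4 TG cultures with the highest myocyte scores.

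Across all probe sets the genotypes differed little. With limma, 0 of 35557 probe sets were called at an adjusted p of 0.05 (0.0%), and 2 met the single-gene threshold that the methods use, p under 0.0001 without adjustment (0.00562%). They were Hey2 and the unnamed probe set 10344174. At an unadjusted p under 0.05 there were 2006 (5.64%), of which 822 were higher (2.31%) and 1184 lower (3.33%) in TG. Higher probe sets were 41.0% of these, but 49.9% after quantile normalization and 75.0% after centring each array on its median, so the direction of that balance turned with the scaling. Differences were small, with 93.7% of probe sets under 0.2 on the log2 scale and 81 (0.228%) at 0.5 or more in either direction. Only 3 reached 1 in size, Hey2, the unnamed probe set 10344219 at 1.16 (SE 0.266) and the unnamed probe set 10338487 at -1.32 (SE 0.252).

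The unnamed probe set 10344174 ranked ahead of Hey2, though the annotation used here does not tell whether it reads a gene or a control. It read 5.63, 5.6, 5.76, 5.83, 5.59 and 5.74 in TG 1 to 6 and 4.96, 5.09, 5.33, 5.24 and 5.09 in WT 1 to 5. Every TG culture lay above every WT culture, and neither TG 5 nor WT 2 stood apart. The difference was 0.55 (SE 0.071, limma adjusted p 0.286), and its rank was 5 without WT 2 and TG 5 and 3 with the score as covariate.

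Leaving out WT 2 and TG 5 gave 6 probe sets under 0.0001 and 1903 under 0.05, 875 higher (2.46%) and 1028 lower (2.89%). Including the myocyte score gave 8 under 0.0001 and 2570 under 0.05, 1277 higher (3.59%) and 1293 lower (3.64%). Neither fit had a probe set under an adjusted p of 0.05. The median residual SD per probe set was 0.1148 in the fit of genotype alone, 0.1072 without both cultures and 0.1023 with the score. These fits share most cultures. Of the 100 probe sets with the smallest p over 11 cultures, 41 were among the leading 100 without WT 2 and TG 5 and 64 among the leading 100 with the score. Unnamed probe sets held 65 of the leading 100 over 11 cultures, 68 without both and 60 with the score, while they were 34.2% of the array.

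**Figure D2:**
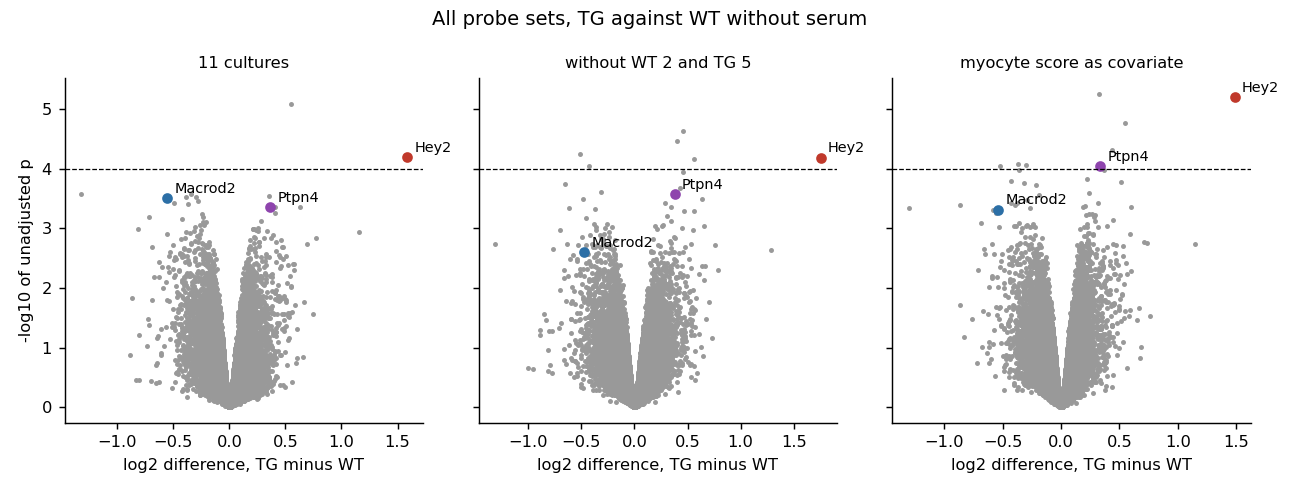
Log2 difference of TG minus WT (x axis) against -log10 of the unadjusted limma p (y axis) for every probe set, over 11 cultures, without WT 2 and TG 5, and with the myocyte score as covariate. The dashed line marks the 0.0001 threshold, and Hey2 stands alone at the right of each panel at 1.58, 1.75 and 1.49.

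Among named genes after Hey2, the phosphatases Ptpn4 and Dusp28 and the autophagy protein Wipi1 led the higher side. None was called, since the adjusted p of limma was 0.853 for each over 11 cultures. Ptpn4, a tyrosine phosphatase of the cytoskeleton and membrane, read 7.11, 7.2, 7.21, 7.01, 6.82 and 6.9 in TG 1 to 6 and 6.67, 6.56, 6.71, 6.7 and 6.73 in WT 1 to 5. All TG cultures were above all WT cultures, with TG 5 nearest to WT. The difference was 0.36 (SE 0.074, unadjusted p 0.000446, rank 15). It was 0.38 at rank 11 without WT 2 and TG 5, and 0.34 at rank 8 with the score (unadjusted p 9.05e-05, limma adjusted p 0.374).

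Dusp28, a small dual specificity phosphatase, read 6.87, 6.87, 6.88, 6.84, 6.9 and 6.76 in TG and 6.73, 6.69, 6.54, 6.73 and 6.5 in WT, with no overlap. Its difference was 0.22 (SE 0.0515) and stayed at 0.22 without both cultures and with the score. Wipi1, which binds phosphoinositides where autophagosomes form, read 8.47, 8.6, 8.54, 8.73, 8.57 and 8.54 in TG and 8.31, 8.39, 8.29, 8.44 and 8.37 in WT. TG 1 lay only just above WT 4. Its difference was 0.22 (SE 0.049) and its rank moved from 29 to 131 without both cultures.

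On the lower side, Macrod2, an enzyme that removes ADP-ribose from proteins, had the smallest p. It read 7.07, 7.32, 7.18, 7.66, 7.06 and 7.14 in TG and 7.62, 7.98, 7.76, 7.85 and 7.75 in WT. Only TG 4 overlapped with WT. The difference was -0.55 (SE 0.108, unadjusted p 0.000313, rank 8), and the rank was 84 without WT 2 and TG 5 and 29 with the score. The noncoding 1700025H01Rik was at 6.09 to 6.18 in TG and 6.26 to 6.52 in WT, a difference of -0.24 (SE 0.0514) with no overlap. Pappa2, a protease that releases insulin-like growth factors from their binding proteins, differed by -0.26 over 11 cultures and -0.31 without both, where it ranked 10, at values under 5 in every culture. Btnl5-ps, a pseudogene of the butyrophilin-like family whose copies its probes may share, was also dim, at 3.66 to 3.9 in TG and 3.99 to 4.53 in WT.

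The probe sets of the microRNA genes Mir149 and Mir155 were among the 10 named genes with the smallest p. Mir149 read 4.99 to 5.55 in TG and 5.55 to 5.78 in WT, a difference of -0.39 (SE 0.0894, unadjusted p 0.00115). Mir155 was dim, at 3.82 to 4.0 in TG and 4.01 to 4.18 in WT, with a difference of -0.21 (SE 0.0451). These probe sets read the hairpin region and not the mature product as such, and whether longer transcripts add to the signal was not tested. The mature 5p sequences from RefSeq (GRCm38.p6, plus strand, chr1:92850381-92850403 for miR-149 and chr16:84714143-84714165 for miR-155) are shown with the seed, bases 2 to 8, in capitals, since the seed sets which messages a microRNA pairs with. The seeds differ, so the pair belongs to separate target families.

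mmu-miR-149-5p: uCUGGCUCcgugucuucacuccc
mmu-miR-155-5p: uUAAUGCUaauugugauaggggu

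Without WT 2 and TG 5, further named genes came to the lead. Ndufa6, a subunit of respiratory complex I, differed by 0.27 (SE 0.0562, unadjusted p 0.000894) against 0.23 over 11 cultures, where TG 5 at 8.67 was level with the lowest WT value. Ndufaf4, an assembly factor of the same complex, was at 7.22 to 7.5 in TG and 7.07 to 7.2 in WT, a difference of 0.22, and 0.26 without both. Pus3, a tRNA pseudouridine synthase, differed by 0.26 and 0.31 in those fits, and Ankhd1, an ankyrin repeat protein, by 0.19 in both. Dync1h1, the heavy chain of cytoplasmic dynein, read 9.38, 9.41, 9.38, 9.74, 9.94 and 9.5 in TG and 9.78 to 9.9 in WT. TG 5 was above every WT culture, and the difference was -0.36 without both against -0.29 with all. Renbp, a renin binding protein and sugar epimerase, had the same pattern, with TG 5 at 7.87 above most WT cultures and a difference of -0.37 without both against -0.33.

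With the myocyte score as covariate, Emc6, Gpr135 and Mrps30 joined the 10 named genes with the smallest p. Mrps30, a protein of the mitochondrial ribosome, was highest in TG 4 at 7.02 and TG 5 at 7.08, against 6.48 to 6.65 in WT. Gpr135, an orphan receptor, was also highest in TG 4 at 5.57 and TG 5 at 5.64. The adjusted p of limma for Emc6, Gpr135 and Mrps30 did not go below 0.615 in that fit.

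**Figure D3:**
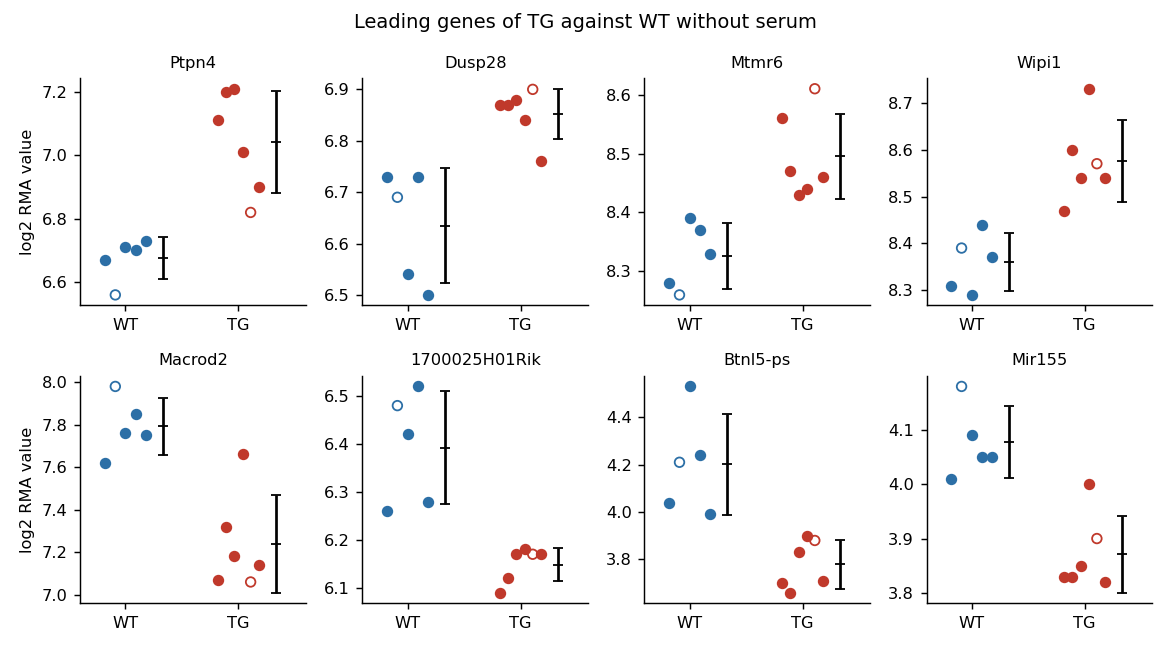
Log2 RMA value (y axis) of 8 genes in 5 WT (blue) and 6 TG (red) cultures, 1 point per culture, with WT 2 and TG 5 as open points and bars for the mean ± SD. Ptpn4, Dusp28, Mtmr6 and Wipi1 lie higher in every TG culture than in any WT culture, and of the lower genes Macrod2 overlaps through TG 4.

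Rank order without any model of the spread gave a short list. Every TG culture lay above every WT culture at 61 probe sets (0.172%) and below at 82 (0.231%). Their median difference was 0.181 and 0.177 in size, and 41 of the 82 lower ones were dim, against 9 of the 61 higher ones and 49.4% of the array. After centring each array on its median the numbers were 274 and 31, so the balance of directions turned with the scaling. Of the 61, 33 were named for 1 gene. After Hey2, Snord57, a small nucleolar RNA, had the largest difference among them, with 7.55, 7.89, 7.81, 8.08, 7.61 and 7.82 in TG and 7.5, 7.54, 7.27, 7.32 and 7.01 in WT, a difference of 0.46 (SE 0.112). Zbtb45, a zinc finger protein, differed by 0.23 and Mettl1, a tRNA methyltransferase, by 0.22. Among the 33 named genes on the lower side, Gm15455 differed by -0.35, Vpreb2 by -0.28 and Entpd3, an ectonucleotidase, by -0.21.

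Hey family proteins are known to bind E-box-like letters, so the 250 bases before each RefSeq start were searched on both strands for CACGTG, which is its own reverse complement, and CACGCG, whose reverse complement is CGCGTG. Matches on opposite strands can overlap, and a gene with any match was counted a single time. Among 15614 genes on the array with such a sequence, 19.0% held either set of letters. Of the higher genes without overlap, 27 had a sequence and 9 of them held either (33.3%), and of the lower genes it was 3 of 27 (11.1%). A match is a description of the letters alone. Ptpn4 held 1, as CGCGTG with its leading base 118 bases before the RefSeq start used, while Dusp28, Mtmr6, Wipi1, Macrod2 and Hey2 held none in this window. That Ptpn4 start lies inside the full range of the gene, chr1:119652467-119837585, and the bases before the outer end of the range were not searched. The Ptpn4 and Dusp28 windows are shown because these genes led the higher side, Ptpn4 with a match, printed in capitals, and Dusp28 without (GRCm38.p6, chr1:119837072-119837321 on the minus strand and chr1:92906739-92906988 on the plus strand).

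Ptpn4: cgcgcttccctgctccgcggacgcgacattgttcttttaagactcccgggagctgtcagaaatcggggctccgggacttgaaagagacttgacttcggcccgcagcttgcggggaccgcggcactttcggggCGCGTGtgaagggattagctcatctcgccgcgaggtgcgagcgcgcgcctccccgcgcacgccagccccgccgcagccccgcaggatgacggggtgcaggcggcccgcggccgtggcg
Dusp28: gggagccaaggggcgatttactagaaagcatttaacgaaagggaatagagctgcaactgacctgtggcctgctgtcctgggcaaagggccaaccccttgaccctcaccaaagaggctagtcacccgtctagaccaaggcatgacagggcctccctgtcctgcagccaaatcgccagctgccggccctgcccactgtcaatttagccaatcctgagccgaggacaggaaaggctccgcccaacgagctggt

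Many more probe sets followed the myocyte score than differed by genotype. In the fit of genotype and score, 4229 of 35537 probe sets outside the score's own genes followed the score at an adjusted p under 0.05, 1887 upward (5.31%) and 2342 downward (6.59%). Without WT 2 and TG 5 the number was 1157, 713 upward and 444 downward. Without TG 5 alone it was 2272 and without WT 2 alone 3150. The slope is the log2 change for each unit of the score.

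Genes of calcium handling and energy supply rose with the score. Outside the sarcomere list, the 5 named genes with the steepest slopes were Lyz2, Srl, Pakap, Itga9 and Ryr2, from 2.60 to 2.13. Of 19 calcium and energy genes 17 rose, against 7.42% of all genes kept. Srl, a calcium buffer of the sarcoplasmic reticulum, read 10.25, 10.53, 10.12, 8.3, 7.18 and 10.26 in TG and 9.45, 7.4, 8.99, 9.4 and 9.47 in WT, with a slope of 2.42 (limma adjusted p 1.84e-07). TG 5 and WT 2 shared the lowest values, and 4 TG cultures lay above every WT culture. The release channel gene Ryr2 had a slope of 2.13 and the exchanger gene Slc8a1 one of 1.85, and both slopes passed without WT 2 and TG 5 as well, with limma adjusted p of 0.0042 and 0.000315. The sarcomere genes make up the score, so their slopes, 1.90 for Myh6 and 0.75 for Myl2 among them, are a description.

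Of 15 cardiac transcription factors, 12 rose with the score. Over all genes kept, 7.42% rose and 8.26% fell, and these shares stand beside each count in this paragraph. Myocd, a cofactor of serum response factor in muscle, had the steepest slope of the list, 1.65 (limma adjusted p 1.17e-07), and Mef2c followed at 1.06. Hypertrophy markers rose in 8 of 13, with slopes of 1.58 for Nppb and 0.67 for Nppa, which encode natriuretic peptides, and 1.61 for Myh7, the slow myosin heavy chain. In fatty acid oxidation 8 of 16 rose, led by Acadl at 0.77, and Cpt1a fell, though without WT 2 and TG 5 the slope of Cpt1a did not pass (limma adjusted p 0.111).

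Of 18 macrophage genes 4 rose, against 7.42% of all genes kept, with Lyz2, a lysozyme, at a slope of 2.60 (limma adjusted p 0.013) and C1qa, a complement subunit, at 1.13. Lyz2 read 9.62, 9.68, 8.82, 7.85, 6.7 and 10.88 in TG and 10.08, 7.0, 9.03, 9.01 and 11.36 in WT. TG 5, WT 2 and TG 4 were lowest, as they were for myocyte genes, but the highest values were in TG 6 and WT 5, whose scores were not the highest. Without WT 2 and TG 5 the Lyz2 slope was 2.001 and did not pass (limma adjusted p 0.529), and that of C1qa did not either (0.593). The macrophage list mean ranged from -0.561 to 0.512 in TG and from -0.405 to 0.813 in WT.

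Some genes of epithelia, vessels and stress responses went the other way. Cldn4, a tight junction protein of epithelia, read 7.31, 6.72, 7.39, 8.67, 9.7 and 6.54 in TG and 7.46, 9.78, 8.68, 7.96 and 6.84 in WT, with a slope of -2.23. Its highest values were in WT 2 and TG 5. The metallothionein gene Mt2 had a slope of -1.80, the vasopressin receptor gene Avpr1a -1.67 and Cyp1a1, a target of the aryl hydrocarbon receptor, -1.55. Without WT 2 and TG 5 the slope of Cldn4 did not pass (limma adjusted p 0.183), while those of Mt2, Avpr1a and Cyp1a1 did, at limma adjusted p of 0.00567 to 0.01.

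Of 16 epicardial and mesothelial genes 4 fell with the score, Efemp1 with a slope of -1.59, Upk1b, Krt19 and Krt7, against 8.26% of all genes kept. Without WT 2 and TG 5 the slopes of Efemp1 and Upk1b passed (limma adjusted p 0.00582 and 0.0432), while those of Krt19 and Krt7 did not (0.178 and 0.324). Of 20 endothelial genes, 10 of them dim, 4 fell, namely Tek at -1.06, Cdh5, Pecam1 and Tie1, and without WT 2 and TG 5 none of these passed (limma adjusted p 0.105 to 0.566). Among 20 fibroblast genes Thy1 alone fell, and of 23 cell cycle genes Pcna alone did, and neither slope passed without WT 2 and TG 5 (limma adjusted p 0.614 and 0.152). The smooth muscle list split, with 6 of 14 rising, against 7.42% of all genes kept, and Notch3 falling.

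**Figure D4:**
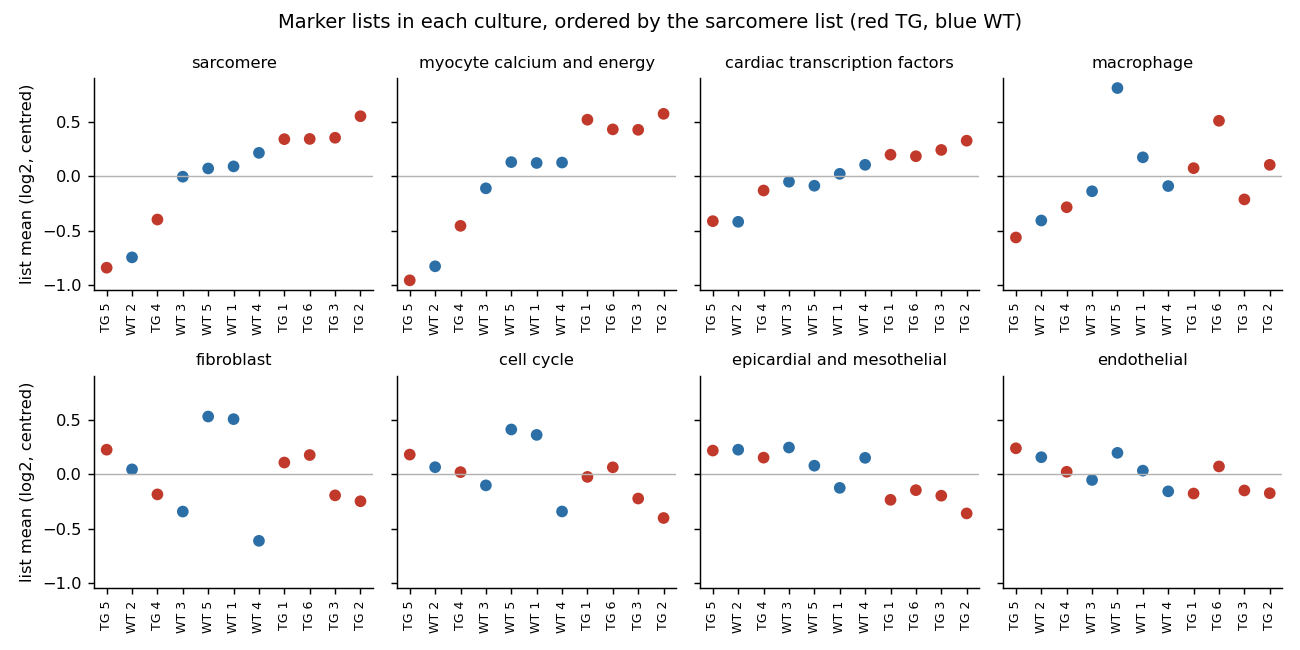
Mean of 8 gene lists in each culture (y axis, log2 value minus each gene's mean over 11 cultures), with cultures ordered from the lowest to the highest sarcomere mean on the x axis, red for TG and blue for WT. The calcium and energy and the transcription factor lists climb with the sarcomere list, whereas the fibroblast and cell cycle lists are highest in WT 5 and WT 1.

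Between genotypes the myocyte lists depended on which low culture was kept. Over 11 cultures 18 of 20 sarcomere genes were higher in TG, with a median difference of 0.144, beside 9010 of 19938 and -0.0083 over all genes kept, and none had an unadjusted p under 0.05 (1.84% of genes kept higher, 2.57% lower). Without WT 2 the median was -0.0304 and 9 of 20 were higher. Without TG 5 it was 0.332 and all 20 were higher, without both 0.15 with 17 higher, and with the score as covariate, which holds these same genes, -0.00664. For the 19 calcium and energy genes the medians were 0.194, -0.0192, 0.421, 0.206 and 0.0233 in the same order.

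Single myocyte genes showed the same dependence. Tnni3, the adult cardiac inhibitory troponin, read 10.85, 10.86, 10.88, 10.49, 9.78 and 10.64 in TG and 10.56, 9.9, 10.38, 10.53 and 10.18 in WT. TG 5 was the lowest of all cultures. Its difference was 0.27 (SE 0.2) over 11 cultures and 0.33 (unadjusted p 0.0112) without both. Cox8b, a muscle subunit of cytochrome oxidase, differed by 0.40 and by 0.45 (unadjusted p 0.00422), and by 0.27 with the score. Myh6, the fast myosin heavy chain, differed by 0.02, by -0.05 without both and by -0.24 with the score (SE 0.0849, unadjusted p 0.019, limma adjusted p 0.663). The sign of its difference turned between these settings.

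Cardiac transcription factors were higher in TG at 13 of 15 genes over 11 cultures, without both and with the score, with medians of 0.186, 0.173 and 0.0769. Without WT 2 alone it was 11 of 15 with a median of 0.0775, and without TG 5 alone 14 of 15 with 0.237. They were higher at all 15 after quantile normalization or median centring, where 10091 and 12558 of 19938 genes kept were higher. At an unadjusted p under 0.05 there was 1 over 11 cultures, 4 without both (2.21% of genes kept were higher and 2.22% lower) and 6 with the score (3.39% and 2.92%). Mef2d read 8.95, 9.02, 8.98, 8.81, 8.71 and 9.0 in TG and 8.89, 8.65, 8.65, 8.73 and 8.67 in WT, so that 4 TG cultures exceeded every WT culture. It differed by 0.20, and by 0.22 without both and 0.17 with the score. Tbx5, a T-box factor of atria and left ventricle, read 7.3, 7.16, 7.16, 6.82, 6.18 and 7.0 in TG and 6.72, 6.34, 6.65, 6.86 and 6.58 in WT, and differed by 0.31, 0.38 and 0.22 in the 3 fits. Irx3, a factor of the ventricular conduction system, differed by 0.50, 0.53 and 0.36. It is counted in the atrial and trabecular list and not among these 15. Gata4, the partner of Hey2, differed by 0.18 (SE 0.165), 0.20 and 0.10. No factor had an adjusted p under 0.05, and 12 of the 15 followed the myocyte score, whose part in these differences was not tested beyond the covariate fit.

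Hypertrophy markers overlapped between the genotypes without serum. Nppb read 11.18, 11.91, 11.28, 10.14, 9.75 and 11.8 in TG and 10.78, 9.49, 10.65, 11.06 and 11.06 in WT, a difference of 0.40 (SE 0.429) that lay within the spread of the cultures. Nppa differed by 0.07, Myh7 by 0.10 and Acta1, skeletal actin, by 0.02. Of the 13 markers, 9 were higher with a median of 0.0974, but without WT 2 alone 6 were higher with a median of -0.0124. The median was 0.151 without TG 5, 0.0673 without both and 0.0241 with the score, and none had an unadjusted p under 0.05 over 11 cultures, without both or with the score. Of 12 atrial and trabecular genes 7 were higher, with a median of 0.0427, which turned to -0.00989 without WT 2 and -0.00119 with the score.

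Lists of other cells were mostly lower in TG. Of 16 epicardial and mesothelial genes, 4 of them dim, 3 were higher, and 3 were higher after quantile normalization and centring too. The median was -0.18 over 11 cultures, -0.145 without WT 2, -0.225 without TG 5, -0.201 without both and -0.129 with the score. Gpm6a, a membrane glycoprotein of mesothelium and neurons, was dim. It read 4.54, 4.39, 4.64, 4.57, 5.24 and 4.73 in TG and 4.83, 5.23, 5.12, 5.0 and 5.49 in WT. TG 5 exceeded 4 WT cultures while every other TG culture lay below all WT cultures. The difference was -0.45 (SE 0.151, unadjusted p 0.0128), or -0.53 (unadjusted p 0.00192) without both. Msln, mesothelin, read 6.43 to 6.78 in TG and 6.41, 6.86, 7.53, 7.58 and 6.97 in WT, a difference of -0.40 (SE 0.187). The list mean was -0.361 to 0.217 in TG and -0.126 to 0.245 in WT, and its part in other differences was not tested.

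Cell cycle genes were lower in TG at all 23 of 23 over 11 cultures, without both, with the score and under both other scalings. Their median was -0.137, -0.181 and -0.111 in the 3 fits, yet none had an unadjusted p under 0.05. The list mean was 0.361 in WT 1 and 0.411 in WT 5 but -0.343 in WT 4 and -0.103 in WT 3, and in TG it ran from -0.403 to 0.18. Members of this list moved together between cultures, so the count of 23 does not stand for 23 separate observations. The fibroblast list had the same WT cultures at its ends, 0.506 in WT 1 and 0.53 in WT 5 against -0.613 in WT 4, with 4 of 20 genes higher in TG and a median of -0.067, or -0.116 without TG 5. In the macrophage list 3 of 18 were higher, 6 under either other scaling and 1 with the score, and the median was -0.10, or -0.179 without WT 2 and -0.0321 without TG 5. For 20 endothelial genes the count was 5, but 9 after quantile normalization, 10 after centring and 10 with the score. Of all 19938 genes kept, 10091, 12558 and 9283 were higher in those 3 settings. The endothelial median was -0.034, or -0.0205 without WT 2 and -0.0906 without TG 5, and 10 of the 20 genes were dim. Among the dim ones Kdr, a receptor for vascular endothelial growth factor, differed by -0.19 (SE 0.062).

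Gene groups that the study names from these same samples were read as a description, and they are no independent evidence of direction. The paper names these members out of larger gene sets that it reports as changed. High counts and steady medians are therefore partly built into the groups. Of 10 phosphatases all were higher in TG, with a median of 0.171, 0.136 without both and 0.181 with the score. An unadjusted p under 0.05 was reached by 9, 5 and 8 of them in the 3 fits, where 1.84%, 2.21% and 3.39% of all genes kept were higher at that p, and an adjusted p under 0.05 by none. The list mean was 0.0173 to 0.135 in TG and -0.132 to -0.0713 in WT, and no member followed the myocyte score. Besides Ptpn4 and Dusp28, Mtmr6, a myotubularin-related lipid phosphatase, had no overlap, with 8.56, 8.47, 8.43, 8.44, 8.61 and 8.46 in TG and 8.28, 8.26, 8.39, 8.37 and 8.33 in WT. Its difference was 0.17 (SE 0.0437), and 0.13 without both. Dusp8, a phosphatase of stress kinases, differed by 0.27 (SE 0.106), with WT 1 at 8.25 and WT 2 at 8.23 within the TG range of 8.08 to 8.59.

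The paper names the phosphatases for cultures both without and with serum. The 4 groups that it names for cultures without serum alone were higher throughout as well. Regulators of transcription factors were higher at 6 of 6 with a median of 0.167, led by the ubiquitin-conjugating enzyme gene Ube2n at 0.32 (SE 0.0981, unadjusted p 0.00707), whose values were 8.19, 8.43, 8.44, 8.29, 8.16 and 8.51 in TG and 7.99, 7.7, 7.97, 8.18 and 8.22 in WT. TG 1 and TG 5 lay under the highest WT culture, WT 5. Steroid receptor genes were higher at 9 of 9 with a median of 0.137, led by the Mediator subunit gene Med1 at 0.18. Nuclear export genes were higher at 5 of 5 with 0.121, among them Xpo7, an exportin, at 0.13, and phosphatase regulators at 7 of 7 with 0.115. In the 3 fits an unadjusted p under 0.05 was reached by 5, 2 and 4 of the 6, by 3, 2 and 5 of the 9, by 2, 1 and 2 of the 5, and by 1, 1 and 2 of the 7, beside 1.84%, 2.21% and 3.39% of all genes kept.

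Groups that the study names for cultures with serum differed less here. Their members were named from arrays with serum, whereas the groups above were named from these same arrays, so this contrast is partly built in. Autophagy genes were higher at 8 of 8 with a median of 0.051, but 6 of 8 without WT 2 (0.0268) and without both (0.0253), and mitochondrial biogenesis genes at 14 of 15 with 0.0767. Apoptosis genes were higher at 4 of 6 with 0.0475. Water transport genes, of which 4 of 8 were dim, were higher at 1 of 8 with a median of -0.0907 (-0.0498 without WT 2 and -0.0505 without both), and at 2 of 8 under the other scalings. Adenylate cyclase genes were higher at 2 of 12 with -0.0365, but at 5 of 12 under either other scaling. Of all 19938 genes kept, 10091 were higher after quantile normalization and 12558 after centring. Eye and gut development genes were higher at 1 of 6 and 0 of 6.

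**Figure D5:**
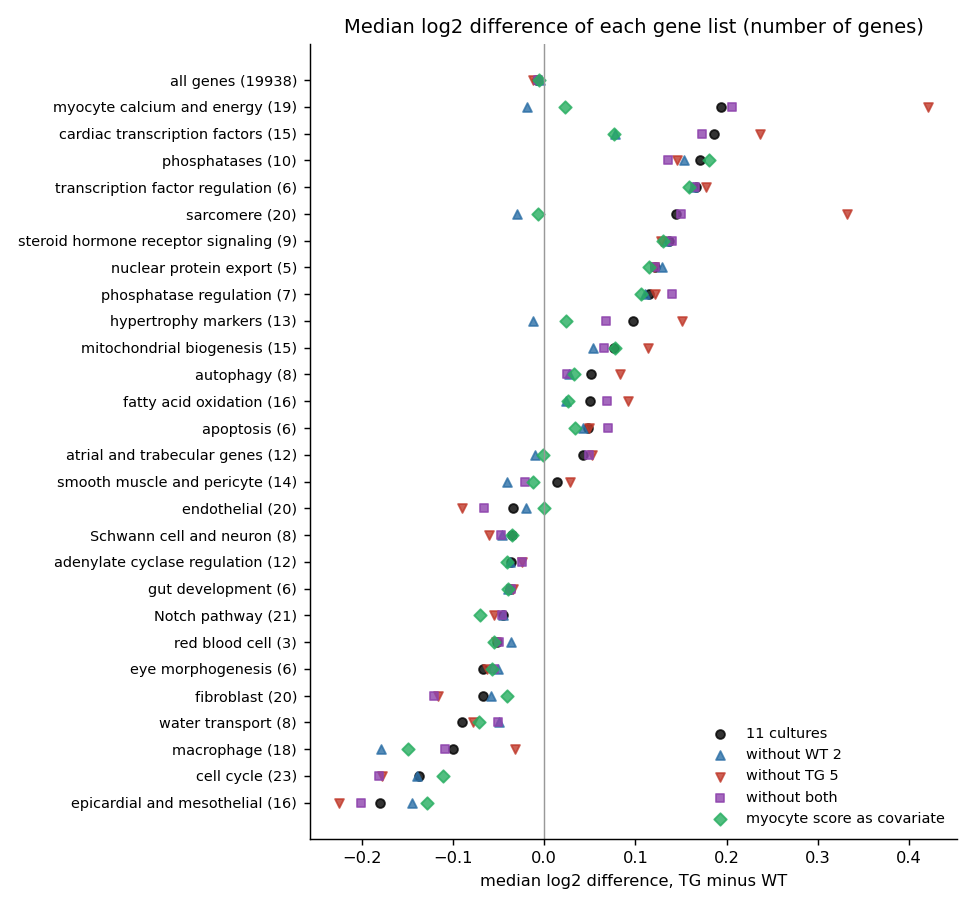
Median log2 difference of TG minus WT (x axis) for all genes and for 27 gene lists, with the number of genes in brackets, under 5 choices of cultures or covariate shown by marker shape and colour. The sarcomere list moves from -0.0304 without WT 2 to 0.332 without TG 5. The phosphatase list, whose members the paper names from these same samples, stays between 0.136 and 0.181.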

How the data were processed

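Targets made from RNA of the 11 cultures were hybridized to Affymetrix Mouse Gene 1.0 ST chips. The authors processed the arrays with RMA in Expression Console 1.1 and deposited log2 normalized intensities. Whether arrays with and without serum were normalized together is not given in the sources used here, so only the arrays without serum entered the main fit. TG and WT were compared with limma 3.58.1 (lmFit and eBayes) in R 4.3.3, with Benjamini-Hochberg adjustment over 35557 probe sets, and correlations were computed with Python 3.11.15 and SciPy 1.17.1. For lists, 1 probe set per gene was kept, that with the highest mean over the 11 arrays, and 336 of 358 entries of 27 lists were measured, 15 lists from textbook knowledge and 12 from the paper. The members and lists were chosen with earlier results of these data known.

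Named were Hey2, probe sets with p under 0.0001, the 10 named genes with the smallest p in each of 3 fits, the 5 with the largest difference without overlap and the 5 steepest slopes in each direction, up to 4 members per list with the smallest p, and 9 fixed genes (Myl2, Myh6, Myh7, Nppa, Nppb, Acta1, Hey1, Heyl and Gata4). Further genes of the lists were picked with values in view. There were 22 alternatives. The list values under other choices of cultures or covariate were added after seeing the data. Microarray intensities have no counting depth. The fits were tested on simulated data. Sequences came from RefSeq tables of GRCm38.p6.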

Additional observations from a re-analysis of the deposited data

Results flagged for a closer look

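In 33 of 348 groups of values, a culture stood apart from the others of its genotype by Dixon's criterion. Chance alone does so in about 1 in 20 independent groups, but these groups were not independent. They share cultures, list means stand beside their own members, and some genes were named for their slope on the myocyte score. The 33 are therefore a description and are not held against that rate. WT 2 stood apart as the lowest WT culture in the mean of the sarcomere list (-0.744), of the calcium and energy list (-0.826) and of the autophagy list (-0.165). In single genes of the myocyte, WT 2 was lowest in Ryr2 (6.73), Srl (7.4), Synpo2l (8.22), Myl2 (11.9), Myh6 (9.78), Myh7 (9.53), Nppa (12.3), Nppb (9.49) and Acadl (9.37). It was also lowest in Itga9 (5.91), and it stood apart in Foxf2 (4.89) and in Hey1 (5.04). TG 5 stood apart among TG cultures in Ndufa6 (8.67), Tnni3 (9.78), Cox8b (7.6), Atg9a (8.14) and Hey1 (5.16).

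The remaining values that stood apart were spread over further cultures. They were TG 1 in Kdr (4.3), Shh (4.83) and Jak2 (7.33), TG 3 in Gli2 (5.12), TG 4 in Robo4 (4.78) and TG 6 in the mean of the adenylate cyclase list (0.0673). Among WT cultures they were WT 1 in Th (4.81) and Heyl (6.02), WT 3 in Wt1 (6.28) and Cd163 (3.92), WT 4 in Jak2 (6.88), and WT 5 in Fcgr3 (5.82) and in the mean of the Schwann cell and neuron list (-0.0783). The cause was not tested for any of them.

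The difference between TG and WT was itself compared between cultures without and with serum in 1 limma fit over 25 arrays. That fit takes 1 estimate of the spread from arrays that may stand on different scales, since their joint normalization is not given. The difference between TG and WT changed at an adjusted p under 0.05 in 1 probe set, the unnamed 10339585, by 0.959 on the log2 scale. At an unadjusted p under 0.05 it differed in 1516 of 35557, fewer than that threshold would give on average by chance alone. For Hey2 the difference of differences was -0.23 (limma adjusted p 1.0).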

How the results depend on the processing

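None of the 22 alternatives gave a probe set under an adjusted p of 0.05 for genotype, where limma found 2006 at an unadjusted p under 0.05. The number under 0.0001, 2 over 11 cultures, was 6 without WT 2 and TG 5, 8 with the myocyte score, 6 with a score from the calcium and energy list, 1 among probe sets named for 1 gene, and 1 to 7 with any culture left out. Probe sets without overlap, 143, were 528 without WT 2 and TG 5, 217 after quantile normalization, 305 after median centring, 93 without dim probe sets, 66 with 1 gene name, and 194 to 450 with any culture left out, fewer cultures making separation easier by construction. The 2006 became 950 without dim probe sets, 1030 with 1 gene name (fewer probe sets tested), 947 in the fit over 25 arrays and 1617 to 2625 with any culture left out. Probe sets following the score, 4229, were 1157 without WT 2 and TG 5 and 2272 to 4222 with any culture left out, lowest without TG 5. Hey2 stayed at 1.44 to 1.73 with any culture left out. It was nearest to the threshold in the fit over 25 arrays (limma adjusted p 0.0571), which pools the spread of arrays with and without serum. The sarcomere median ran from -0.0304 to 0.332, negative without WT 2. With any TG culture left out, the r of Hey2 with Myl2 ran from 0.849 to 0.906 (exact permutation p 0.025 to 0.075), and without TG 4 and TG 5 it was 0.353 (exact permutation p 0.542). Of the named genes, 18 changed sign in at least 1 setting, none of them called.

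TG and WT cultures of the same deposited number correlated in their deviations at 0.15, -0.449, 0.13, -0.159 and -0.0972. The paper's figure of cultures without serum numbers them otherwise, so a deposited number need not mark cultures prepared together. Whether cultures were prepared in pairs cannot be told from these values or from the block fit below. With culture number as a replicate block, Hey2 differed by 1.48 (limma adjusted p 0.786), 0 probe sets passed, 2 had p under 0.0001 and 2188 under 0.05, and 3098 followed the score.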
